A study of Mus musculus with 10 samples.

Results

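The comparison set uninvolved dorsal skin of mice labelled IL-17C+KO against uninvolved dorsal skin of mice labelled IL-17C+. Its members were chosen by title and genotype label, which gave 5 of the 10 libraries of the series. The IL-17C+ group holds mice 2237, 2275 and 2296, and the IL-17C+KO group holds mice 2392 and 2465. Every mouse is of strain C57Bl/6 and carries an IL-17C transgene, so there is no mouse without the transgene among the controls. The title of the series names Il6 as the knocked-out gene. Each mouse gave 1 uninvolved and 1 lesional full-thickness biopsy, and the lesional libraries are used below only for values set beside those of uninvolved skin. The mice were 10 or 14 weeks old. Which mouse had which age is not given in the labels, so age and genotype cannot be told apart. The labels also name no promoter for the transgene and no source strain for the knockout allele. RNA was sequenced, and each deposited table lists a read count for each of 24358 gene symbols.

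IL-17C is an epithelial cytokine that signals through the receptor pair IL-17RA and IL-17RE and induces antimicrobial proteins, neutrophil chemokines and stress keratins in keratinocytes. IL-6 binds IL-6R and the shared subunit gp130 (Il6st) and activates STAT3, whose target Socs3 feeds back on the receptor. Skin that is not visibly inflamed also changes with the hair cycle: in the growth phase the follicle makes hair keratins and pigment, and in the resting phase these products are nearly absent.

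The 2 genes on which the labels and the tissue state turn are shown by the 250 bases before their start in the RefSeq promoter table (GRCm38.p6). Il6 is the targeted gene (chr5:30012864-30013113, plus strand), and Krt71 is a keratin of the inner root sheath of growing hair (chr15:101743098-101743347, minus strand). Capitals mark matches to the NF-kB consensus motif, an AP-1 motif (TGANTCA) and a TATA motif (TATAAA), each searched on both strands.
Il6: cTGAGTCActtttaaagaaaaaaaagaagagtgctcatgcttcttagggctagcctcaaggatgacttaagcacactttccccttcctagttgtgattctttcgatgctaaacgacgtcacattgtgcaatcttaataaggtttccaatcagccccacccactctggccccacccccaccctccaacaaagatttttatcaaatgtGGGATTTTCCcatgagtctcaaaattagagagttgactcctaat
Krt71: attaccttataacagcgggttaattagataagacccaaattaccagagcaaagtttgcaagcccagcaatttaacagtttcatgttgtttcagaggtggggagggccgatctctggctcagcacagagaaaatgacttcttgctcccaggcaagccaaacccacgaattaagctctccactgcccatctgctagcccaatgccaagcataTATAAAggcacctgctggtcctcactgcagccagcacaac
The Il6 window holds an NF-kB match once, beginning 44 bases before the start, and the AP-1 letters once, beginning 249 bases before it. The Krt71 window holds the TATA letters once, beginning 40 bases before its start. Of 32851 windows of the same length, 3.90% hold an NF-kB match, 6.75% the AP-1 letters and 12.4% the TATA letters. The matches did not overlap, and they describe letters only.

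The libraries held 21056850 to 26386691 counts and 17790 to 18042 genes with at least 1 count. A gene with 0 counts could still be present at up to 3 counts, which is 0.11 to 0.14 CPM (CPM are counts scaled to the library size, with TMM factors). Defining transcripts of skin were abundant in all 5 libraries: the basal keratin Krt14 ranged from 1642 to 4930 CPM and the suprabasal keratin Krt10 from 5533 to 10619 CPM. The X-linked Xist was present in every library, at 227, 142 and 211 CPM against 115 and 87.2 CPM (KO last), and the Y-linked genes Ddx3y, Eif2s3y, Kdm5d and Uty were at or near 0 counts. The IL-17C+ libraries 2237 and 2296 stood apart by hair follicle genes, described below. Over 15568 genes (genes being no replicates), the log2 CPM of IL-17C+ library 2275 had a correlation of 0.985 and 0.976 with the libraries of the KO mice. Its correlation with IL-17C+ libraries 2237 and 2296 was 0.878 and 0.94. Library 2296 in turn had 0.968 with KO library 2392 and 0.946 with 2237 of its own group. The labels do not say more of the 5 mice than their number. The edgeR p-values below set the difference between labels against the spread of these libraries, which the fit partly shares between genes.

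The targeted gene was higher under the knockout label. Il6 lies on chromosome 5 from 30013114 to 30019981 (GRCm38). It was counted 9, 4 and 6 times in IL-17C+ libraries 2237, 2275 and 2296, and 71 and 55 times in libraries 2392 and 2465, labelled IL-17C+KO. In CPM these are 0.362, 0.153 and 0.281 against 3.09 and 2.03. The groups did not overlap, and pooled KO counts were 9.58 times those of IL-17C+ per total count (95% counting interval 5.89 to 16.4). The fitted log2 difference, KO minus IL-17C+, was 3.25 ± 0.55 (SE), with an unadjusted p of 0.000678 and an adjusted p of 0.849 in edgeR's quasi-likelihood test. Lesional skin of the same mice gave 0.804, 0.726 and 2.77 CPM against 12.4 and 14.1 CPM. A count summed over the whole gene does not show which exons were read, so it cannot tell an intact from a disrupted transcript. Whether the genotype labels were exchanged was not tested, and in that case every difference below would have the opposite sign. Libraries are named here by their labels, and KO stands for IL-17C+KO in all that follows.

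The Il17c count, in which transgene and endogenous reads cannot be told apart, did not separate the groups. Il17c (GRCm38 chromosome 8, 122422020 to 122423639) stood at 14790, 1358 and 5124 CPM in IL-17C+ libraries 2237, 2275 and 2296. It stood at 1853 and 513.1 CPM in the KO libraries 2392 and 2465. Library 2275 fell between the KO libraries, so the groups overlapped, with a log2 difference of -2.58 ± 1.11 (SE). The 5 uninvolved libraries thus differed in the level of the cytokine transcript within a label as well as between labels. With 2275 as the lone IL-17C+ library, an alternative chosen after the data were seen, the log2 difference of Il17c was -0.22.

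**Figure D1:**
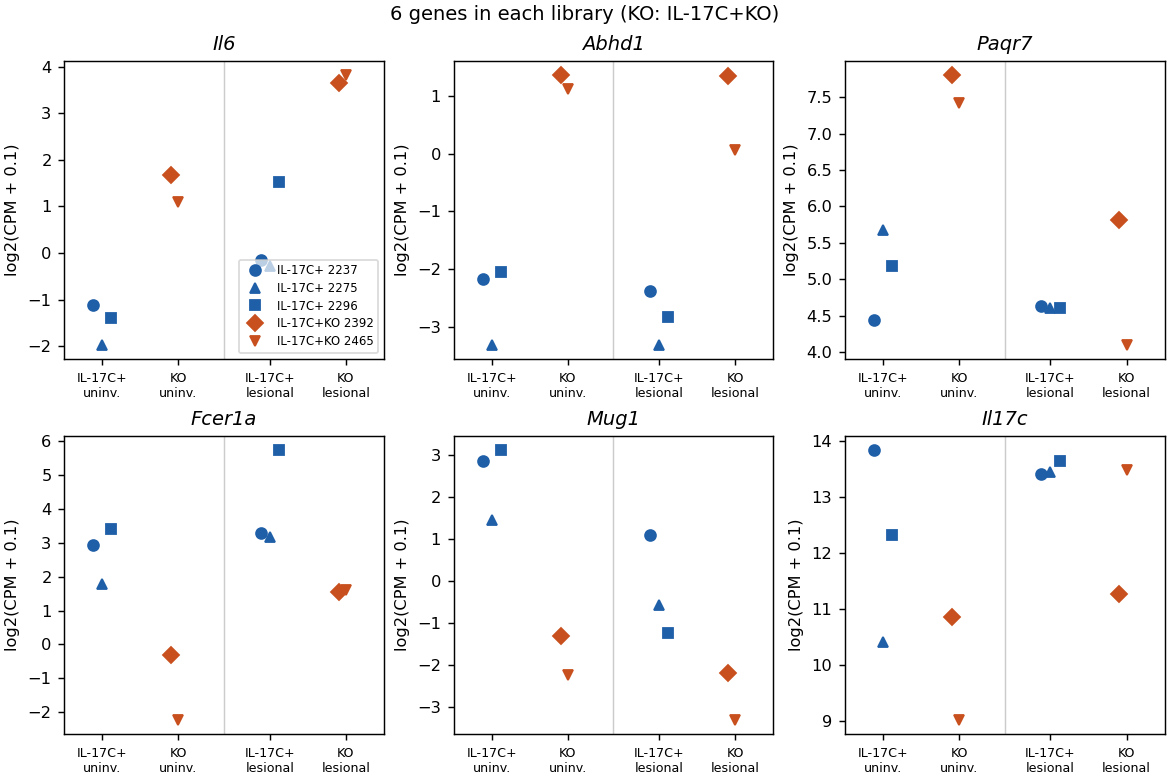
Level of 6 genes as log2(CPM + 0.1) in each library, in uninvolved and lesional skin, with 1 point per library (IL-17C+ blue, IL-17C+KO orange). In uninvolved skin Il6, Abhd1 and Paqr7 are above, and Fcer1a and Mug1 below, all IL-17C+ libraries in both KO libraries, whereas Il17c overlaps.

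No gene separated the genotype labels at a false discovery rate (FDR) of 0.05. Of 15568 genes tested, 0 had a Benjamini-Hochberg adjusted p under 0.05 in edgeR's quasi-likelihood test, and the smallest adjusted p was 0.849. An unadjusted p under 0.05 was reached by 581 genes, and 778 are expected by chance. Of these, 298 were higher (1.91% of genes tested) and 283 lower (1.82%) in the KO libraries. Both KO libraries were above every IL-17C+ library for 1766 genes (11.3%) and below for 1495 (9.60%). The median log2 difference over all genes was -0.01, and 48.9% of genes had a positive value. An exact permutation test of 1 gene in a design of 2 against 3 libraries has 10 assignments, so its one-sided p cannot fall below 0.1, nor below 0.2 when doubled for both sides. These shares are the background for the list counts below, whose members share the same 5 libraries and are not replicates. The fitted biological coefficient of variation was 41.5%.

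That count rested on 1 library. Without IL-17C+ library 2275 the same edgeR test called 241 of 15367 genes, 83 higher (0.540%) and 158 lower (1.03%) in the KO libraries. Of 37 tested hair shaft and inner root sheath genes, 35 were among the 158. Of 34 tested skeletal muscle list genes, 6 were among the 83. In all, 185 of the 241 calls were in no list, and further keratin-associated protein genes were among these. The lists do not hold every hair or muscle gene, so the calls outside them were not sorted by cell type. DESeq2 on all 5 libraries called 10 genes (0.0515% of 19426): Il6, Paqr7, Abhd1, Sfrp2, Gfpt2 and Fndc1 higher, and Mug1, Mug2, Mug-ps1 and Fcer1a lower.

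**Figure D2:**
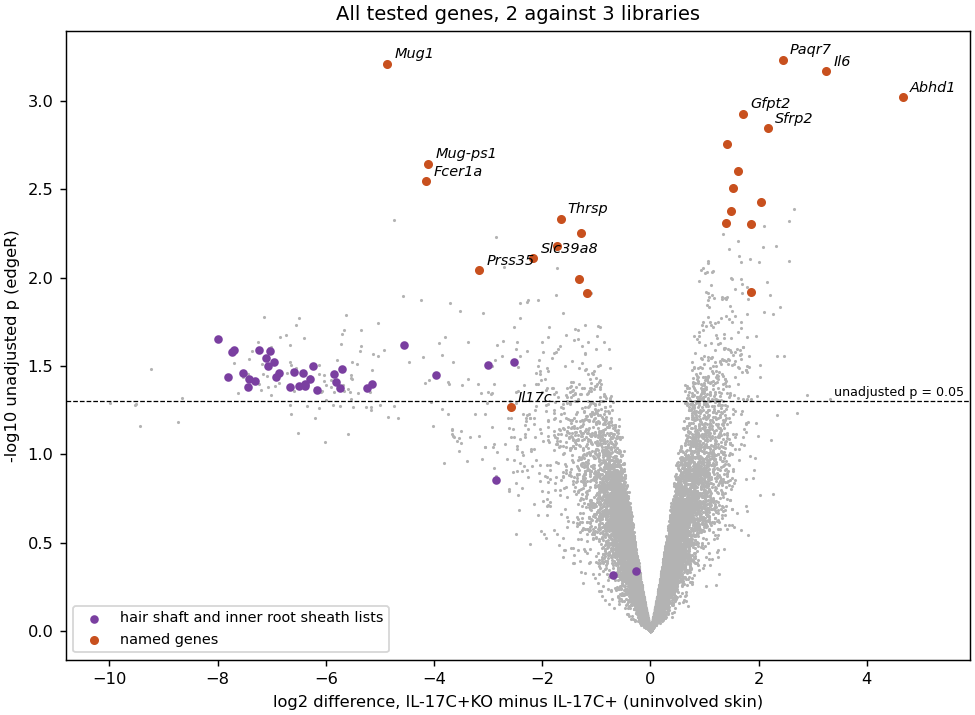
Each grey point is 1 of 15568 tested genes, placed by its log2 difference (KO minus IL-17C+) and by -log10 of its unadjusted edgeR p. Orange points are the named genes and purple points the hair shaft and inner root sheath lists, which lie far to the left at modest p.

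The higher genes with the smallest p that met the naming rule were led by Paqr7, a membrane progesterone receptor. That rule, in both directions, took only genes whose groups did not overlap in uninvolved skin. Paqr7 (chromosome 4, 134496697 to 134510235) stood at 21.7, 51.2 and 36.3 CPM in the IL-17C+ libraries and at 224 and 172 CPM in the KO libraries. Its log2 difference was 2.44 ± 0.41 (SE), with an unadjusted p of 0.000585 in edgeR. The groups were far apart in uninvolved skin, and in lesional skin they overlapped, at 24.6, 24.2 and 24.2 against 56.2 and 17.0 CPM. The difference between the skin types was -2.19 log2 units for Paqr7, with an unadjusted p of 0.00899 and an adjusted p of 1 in edgeR.

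Among the others on the higher side, several encode secreted or matrix proteins. Sfrp2, a secreted modulator of WNT signalling, stood at 2.82, 1.99 and 2.06 CPM against 13.4 and 7.29 CPM (log2 difference 2.18 ± 0.42, SE). Loxl1, which cross-links elastin, stood at 18.4, 31.4 and 28.6 CPM against 61.4 and 89.2 CPM (1.53 ± 0.34). Emilin2, a glycoprotein of elastic fibres, stood at 12.6, 20.2 and 16.4 CPM against 38.4 and 62.6 CPM (1.62 ± 0.35). In each case both KO libraries were above the highest IL-17C+ library, which the naming rule required. Fndc1 (log2 difference 1.42 ± 0.28) carries fibronectin type III domains, Pi16 (1.49 ± 0.35) marks a fibroblast population of the skin, and Fcna (1.39 ± 0.34) encodes the lectin ficolin A. Gfpt2, an enzyme of hexosamine synthesis, stood at 14.0, 18.6 and 21.4 CPM against 48.3 and 70.4 CPM (1.72 ± 0.32). Adcy5, an adenylate cyclase, had a log2 difference of 2.04 ± 0.47, and Tubb4a, a beta tubulin, one of 1.86 ± 0.46. All 10 had an adjusted p of 0.849 in edgeR.

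On the lower side the leading genes were a protease inhibitor and a subunit of an immunoglobulin receptor. Mug1, which encodes murinoglobulin, a broad protease inhibitor, stood at 7.12, 2.64 and 8.57 CPM in the IL-17C+ libraries and at 0.305 and 0.11 CPM in the KO libraries. Its log2 difference was -4.87 ± 0.82 (SE), with an unadjusted p of 0.000615 in edgeR. Every KO library was below every IL-17C+ library, which the naming rule required. In lesional skin the groups did not overlap either, at 2.04, 0.565 and 0.322 against 0.118 and 0 CPM. These lesional values are 66, 14 and 8 counts against 3 and 0, so both KO values are within the 3-count limit. Mug-ps1 and Mug2 are near-identical copies of Mug1, and how reads were split among the 3 is not stated, so their values of -4.11 and -4.74 are uncertain and not separate evidence.

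Fcer1a, the alpha subunit of the high-affinity IgE receptor, had 186, 87 and 224 counts in the IL-17C+ libraries and 16 and 3 counts in the KO libraries. In CPM these are 7.48, 3.32 and 10.5 against 0.697 and 0.11, a log2 difference of -4.14 ± 0.91 (SE). Other mast cell genes differed less. Of 14 tested mast cell and eosinophil genes, 1 was lower at an unadjusted p under 0.05 and 0 were higher, 3 did not overlap on the lower side, and the median log2 difference was -0.02. The mast cell protease Cpa3 stood at 29.1, 51.8 and 41.8 CPM against 30.5 and 51.6 CPM, and Mcpt4 at 62.7, 82.7 and 55.9 against 47.5 and 82.3 CPM. Both KO values of Cpa3 lay within the IL-17C+ range, and those of Mcpt4 lay below and within it. The receptor's beta subunit Ms4a2 had a log2 difference of -0.55 ± 0.53. In lesional skin Fcer1a stood at 9.62, 8.84 and 53.8 CPM against 2.84 and 2.91 CPM.

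The remaining lower genes differed by smaller amounts. Thrsp, a nuclear protein that promotes fat synthesis, stood at 341, 323 and 197 CPM against 72.6 and 109 CPM (log2 difference -1.66 ± 0.40, SE). Slc39a8, a zinc and manganese importer, stood at 124, 35.2 and 51.3 CPM against 14.8 and 16.5 CPM (-2.16 ± 0.58). Prss35, a serine protease family member, stood at 6.27, 1.07 and 3.32 CPM against 0.262 and 0.516 CPM (-3.17 ± 0.88). The groups of these 3 genes did not overlap, which the naming rule required. IL-17C+ library 2275 was the nearest to the KO libraries for Slc39a8 and Prss35. Etaa1, an activator of the replication stress kinase ATR, had a log2 difference of -1.17 ± 0.35. Kbtbd8 (-1.72 ± 0.45) encodes a ubiquitin ligase adaptor, Pdik1l (-1.29 ± 0.32) a kinase, and Depdc7 had -1.33 ± 0.38. Pdik1l lies on chromosome 4 at 134275002 to 134287895, in the neighbourhood of Paqr7.

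The same genes were read in lesional biopsies of the same mice, which are separate libraries but not separate animals. Of the 10 named higher genes, 4 had both KO libraries above every IL-17C+ library there too (Gfpt2, Emilin2, Loxl1 and Adcy5). Of the 10 named lower genes, 7 were below in the same sense: Mug1, Mug-ps1, Fcer1a, Pdik1l, Kbtbd8, Slc39a8 and Etaa1. Mug-ps1 is not separate evidence from Mug1, and both had 3 counts or fewer in the lesional KO libraries. Of all genes on the higher side in uninvolved skin, 578 of 1766 (32.7%) were also on the higher side in lesional skin, and 500 of 1495 (33.4%) on the lower side. Those counts are 3.71% and 3.21% of the genes tested. In lesional skin 0 of 15691 genes passed the FDR threshold, and 0 of 16083 did for the difference between the skin types (188 at an unadjusted p under 0.05) in edgeR.

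A targeted allele can carry flanking sequence of its source strain, so the genes around Il6 were read as a group. Of 175 tested genes that reach within 10 Mb of the Il6 start, 91 had positive and 84 negative log2 differences, with a median of 0.02. At an unadjusted p under 0.05, 5 were higher and 5 lower. Both KO libraries were above for 28 and below for 26. Abhd1, named for the alpha/beta hydrolase family and typed as a processed transcript in GENCODE M21, stood apart. It lies 937 kb from the Il6 start (chromosome 5, 30950066 to 30955091). It had 3, 0 and 3 counts in the IL-17C+ libraries and 57 and 56 counts in the KO libraries, 27.2 times as many per total count (95% counting interval 12.1 to 75.7). In lesional skin it stood at 0.0928, 0 and 0.0402 CPM against 2.45 and 0.94 CPM. Abhd1 overlaps Preb on the other strand, and the sources used here do not give the strand setting of the counting. Preb itself stood at 66.8, 54.8 and 54.2 CPM against 53.1 and 48.5 CPM. Spon2, a secreted matrix protein gene 3185 kb from Il6, stood at 14.1, 8.90 and 4.36 CPM against 21.1 and 45.1 CPM (log2 difference 1.86 ± 0.55, SE). Of 8 tested genes known to vary between laboratory strains, 1 was higher and 0 were lower at an unadjusted p under 0.05. Nnt, which is disrupted in the C57BL/6J substrain, stood at 11.7, 37.6 and 13.6 CPM against 36.0 and 44.8 CPM and so overlapped.

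**Figure D3:**
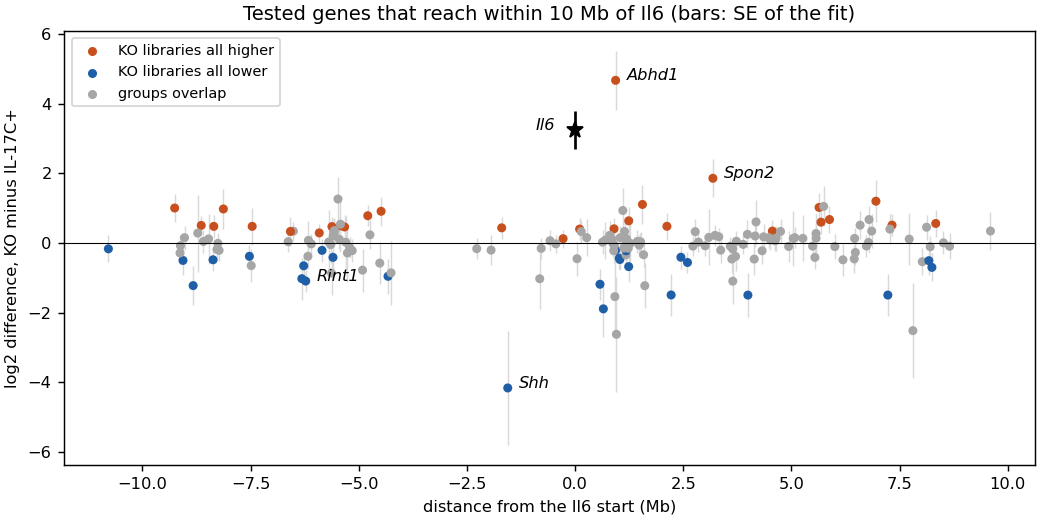
Log2 difference (KO minus IL-17C+, bars SE of the fit) of each tested gene against its distance in Mb from the Il6 start. Il6 (star) and Abhd1 lie above the band of their neighbours, and Shh lies below it.

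The hair follicle gave the widest differences, and they lay between IL-17C+ libraries as much as between labels. Of 25 tested hair shaft genes (keratins and keratin-associated proteins), 23 were lower and 0 higher in the KO libraries at an unadjusted p under 0.05, with a median log2 difference of -6.39. The summed level of the list was 6434, 35.6 and 1431 CPM in IL-17C+ libraries 2237, 2275 and 2296. It was 61.6 and 39.4 CPM in KO libraries 2392 and 2465. Library 2275 was therefore the lowest of all 5, and 2 of the 25 genes had groups that did not overlap. Set against library 2275 alone, the KO libraries had a median of 1.08 over 22 tested genes. In that fit a gene could pass the filter through a KO library alone, and counts were low. Krt31 had 9 counts in library 2275 against 34 and 15 in the KO libraries, and Krt39 had 6 against 0 and 5. That median therefore does not show a direction.

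Inner root sheath genes were high in the same libraries, 2237 and 2296. Their summed level was 10540, 160.3 and 2283 CPM against 118.6 and 143.6 CPM, so library 2275 was above both KO libraries here. Of 12 tested, 11 were lower at an unadjusted p under 0.05, with a median of -6.94, and 2 did not overlap. Krt71, whose upstream letters are printed above, stood at 4016, 3.78 and 643.8 CPM against 10.5 and 7.66 CPM. Krt25, another keratin of that sheath, stood at 1729, 4.39 and 335 CPM against 5.49 and 5.52 CPM. In both genes 2 IL-17C+ libraries were high and the other 3 libraries were low. Against library 2275 alone the median was 0.64, with the same limit of the filter. In lesional skin of the same mice Krt71 stood at 2428, 2567 and 369 CPM against 4.34 and 743 CPM. The groups overlapped there, and mouse 2275, low in uninvolved skin, was the highest. Of 12 inner root sheath genes tested in lesional skin, 0 had positive values, with a median of -2.18. In bulk skin, fewer cells of a type and less RNA per cell cannot be told apart. Multigene keratin and keratin-associated families can also share reads.

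Regulators of the hair growth phase went the same way in part. Of 24 tested, 3 were lower and 1 higher at an unadjusted p under 0.05. The median was -0.47, and -0.14 without library 2237. Msx2, a homeobox regulator of the hair matrix, stood at 89.4, 5.04 and 18.4 CPM against 5.06 and 3.24 CPM. Shh, a growth-phase ligand of the matrix, stood at 7.80, 0.344 and 0.515 CPM against 0.0872 and 0.221 CPM. Hoxc13, which drives hair keratin genes, stood at 37.0, 5.46 and 15.8 CPM against 5.36 and 4.01 CPM. Library 2237 was the highest for these genes, and library 2275 was close to the KO libraries. Igfbp5, a binding protein of insulin-like growth factors, was on the opposite side, at 47.4, 135 and 62.3 CPM against 145 and 335 CPM. The list drawn up for resting-phase and bulge genes had a median of 0.04, with 1 of 16 lower and 0 higher. The lower member was Fgf5, whose place in the list does not make it a resting-phase gene.

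Pigment genes were highest in library 2237. The summed melanocyte list stood at 1461, 152.9 and 202.7 CPM against 132.6 and 139.5 CPM. Of 13 tested, 1 was lower and 0 higher at an unadjusted p under 0.05, and 5 had both KO libraries below every IL-17C+ library. The median was -2.54, and -0.39 without library 2237. Dct, an enzyme of melanin synthesis, stood at 637, 51.6 and 72.4 CPM against 40.8 and 46.4 CPM. Tyr, the rate-limiting enzyme, stood at 122, 4.32 and 6.46 CPM against 5.71 and 4.49 CPM. Mitf, the master regulator of melanocytes, varied little, at 30.8, 21.4 and 18.8 CPM against 17.3 and 25.3 CPM.

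Cell cycle genes all had lower fitted values in the KO libraries of uninvolved skin. Of 40 tested, 0 were positive and 2 were lower at an unadjusted p under 0.05 (Aurka and Kif2c), with 8 non-overlapping and a median of -0.91. The mitotic kinase gene Aurka stood at 23.9, 7.14 and 9.97 CPM against 4.97 and 5.41 CPM. Mki67, the Ki-67 antigen, overlapped, at 56.2, 37.6 and 64.3 CPM against 47.4 and 26.4 CPM. Summed over the list the level was 1937, 667.8 and 1069 CPM against 808.3 and 547.3 CPM, so library 2275 lay between the KO libraries. Against 2275 alone the median was -0.01, and without library 2237 it was -0.46. Hair keratins and cell cycle genes were thus both high in 2237 and 2296, and the part of the follicle in the cell cycle values was not tested. In lesional skin of the same mice most cell cycle genes went the other way, with 32 of 40 positive and a median of 0.16.

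**Figure D4:**
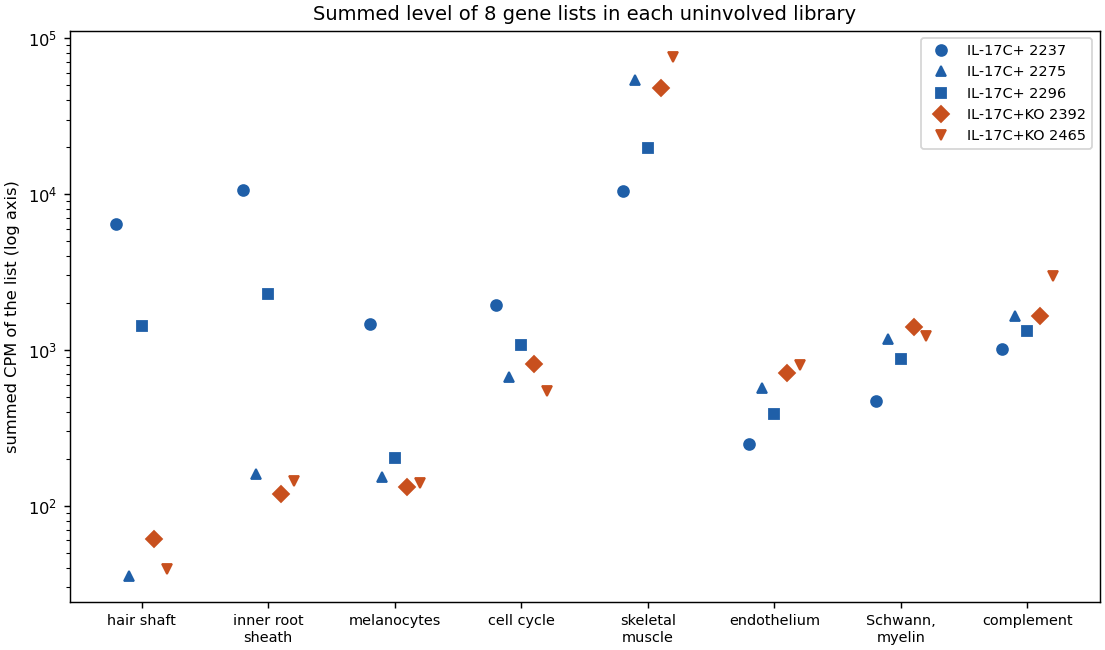
Summed CPM (log axis) of 8 gene lists in each of the 5 uninvolved libraries, with 1 point per library. Hair shaft and inner root sheath lists are high only in IL-17C+ libraries 2237 and 2296, and library 2275 lies near the KO libraries in most lists.

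Muscle, vessel and nerve lists leaned to the higher side in uninvolved skin. Of 34 skeletal muscle genes, 33 had positive values, 1 was higher and 0 were lower at an unadjusted p under 0.05, and 10 did not overlap, with a median of 1.11. The summed level was 10440, 53720 and 19560 CPM against 48120 and 75300 CPM. The fast myosin Myh4 stood at 144, 905 and 96.1 CPM against 598.5 and 5072 CPM, and Myh2 at 120, 1588 and 903 against 2569 and 1992 CPM. Library 2275 was above a KO library for the sum and for Myh4, and against it alone the list median was 0.11. It was 2.16 without library 2275 and 0.70 without library 2465. Full-thickness dorsal skin includes the muscle sheet under the dermis, and how much of it each biopsy held was not measured. In lesional skin of the same mice the muscle list went the other way. There 0 of 34 tested genes had positive values, with a median of -0.79.

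Schwann cell and endothelial genes had fewer overlaps. All 16 Schwann cell and myelin genes had positive values, with 6 higher and 0 lower at an unadjusted p under 0.05, 11 non-overlapping, and a median of 0.95. Prx, a protein of the peripheral myelin sheath, stood at 10.9, 23.9 and 15.03 CPM against 34.3 and 49.4 CPM (log2 difference 1.33 ± 0.40, SE). Drp2, a partner of that protein at the myelin surface, stood at 3.42, 11.996 and 8.38 CPM against 18.7 and 23.4 CPM (1.41 ± 0.51). Both KO libraries were highest for these genes, with 2275 next. Against 2275 alone the median was 0.48.

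Of 21 endothelial and lymphatic genes, 20 had positive values, 5 were higher and 0 lower at an unadjusted p under 0.05, and 17 did not overlap. The median was 0.90, but 0.58 without library 2237 and 0.43 against 2275 alone. Selp, an adhesion molecule for leukocytes, stood at 3.62, 7.26 and 7.73 CPM against 24.0 and 14.5 CPM (log2 difference 1.63 ± 0.44, SE). Sele, the related E-selectin, stood at 2.17, 4.97 and 4.12 CPM against 9.11 and 8.18 CPM (1.20 ± 0.44). Tek, the angiopoietin receptor, stood at 7.04, 19.1 and 10.7 CPM against 28.9 and 49.4 CPM (1.67 ± 0.48). These 3 genes were higher in both KO libraries than in any IL-17C+ library in uninvolved and in lesional skin. Pecam1, a junction protein of all endothelium, had a log2 difference of 1.04 ± 0.46. In smooth muscle and pericytes, 1 of 14 genes was higher and 0 lower, namely Pdgfrb, at 10.3, 25.3 and 25.3 CPM against 42.8 and 47.3 CPM.

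Fibroblast and matrix genes had values on both sides. Of 25 tested, 18 were positive, 7 were higher and 0 lower at an unadjusted p under 0.05, 12 did not overlap, and the median was 0.53. The summed level overlapped and was highest in library 2237, at 7713, 4601 and 5167 CPM against 5473 and 7177 CPM. Fn1, fibronectin, stood at 56.7, 96.7 and 46.5 CPM against 122 and 196 CPM (log2 difference 1.26 ± 0.41, SE). Eln, elastin, stood at 28.8, 93.2 and 49.8 CPM against 143 and 153 CPM (1.37 ± 0.48). Pdgfra, a receptor of fibroblasts, had 0.81 ± 0.30. Both KO libraries were highest for these 3, whereas the collagen gene Col3a1 was highest in library 2237, at 1644, 566 and 996 CPM against 676 and 795 CPM. Against 2275 alone the list median was 0.57. The median of the matrix list was thus no smaller with library 2275 as the sole IL-17C+ library.

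Of 24 proteases and remodelling genes, 16 had positive values, and 5 were higher and 0 lower at an unadjusted p under 0.05. The median was 0.27, and -0.19 without library 2392. Mmp9, a gelatinase, stood at 5.99, 11.003 and 8.24 CPM against 14.9 and 30.1 CPM (log2 difference 1.42 ± 0.42, SE). It was higher in each KO library than in any IL-17C+ library. Timp2, a metalloproteinase inhibitor, and Adamts5, a protease that cleaves proteoglycans, had log2 differences of 0.87 ± 0.33 and 1.07 ± 0.41.

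Genes of the IL-6 pathway other than Il6 were mixed. Of 26 tested, 1 was higher (Il6) and 1 lower (Cntfr) at an unadjusted p under 0.05. The median was 0.27, and 0.0029 without library 2237. The receptor Il6ra stood at 8.004, 53.0 and 37.3 CPM against 42.0 and 58.2 CPM. The shared subunit Il6st stood at 89.8, 208 and 151 CPM against 219 and 302 CPM (log2 difference 0.80 ± 0.41, SE). The groups of Il6st were adjacent without overlap, and those of Il6ra overlapped. Stat3 had 0.50 ± 0.46, and the feedback target Socs3 stood at 20.4, 98.2 and 48.8 CPM against 58.3 and 35.7 CPM, inside the range of the IL-17C+ libraries. Cntfr, a receptor of ciliary neurotrophic factor, stood at 26.5, 6.72 and 23.4 CPM against 5.58 and 4.75 CPM (-1.87 ± 0.61). The lower IL-17C+ value of Cntfr was again library 2275. Osm, which signals through the same subunit, stood at 0.121, 0.0764 and 0.515 CPM against 0.741 and 0.516 CPM.

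The IL-17 axis and the keratinocyte response varied within labels. Of 18 IL-17 axis genes, 1 was higher and 0 lower at an unadjusted p under 0.05, Il17rd, an inhibitor of IL-17 signalling (0.95 ± 0.39, SE). Il17ra had 0.45 ± 0.33 and Il17re 0.00 ± 0.32. Of 28 activated keratinocyte genes, 0 were higher and 0 lower at that threshold, and 0 had groups that did not overlap. Their summed level was 6737, 2282 and 9869 CPM against 6139 and 1752 CPM. Krt16, a stress keratin, stood at 1030, 164 and 1909 CPM against 945.2 and 119 CPM. S100a8, an antimicrobial calcium-binding protein, stood at 815, 26.7 and 945 CPM against 285 and 18.5 CPM. Libraries 2237, 2296 and 2392 were high, and libraries 2275 and 2465 low, whatever their label. The median of the list was -0.35, but 0.36 without library 2296, 0.41 without 2465, -3.23 without 2392 and 1.59 against 2275 alone. Among 25 antimicrobial genes, 1 was higher and 0 lower, the copper carrier ceruloplasmin (Cp), at 38.5, 53.0 and 39.8 CPM against 69.0 and 89.8 CPM. Barrier genes (median 0.05) and basal and spinous keratinocyte genes (0.10) had 0 of 28 and 0 of 27 past an unadjusted p of 0.05.

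**Figure D5:**
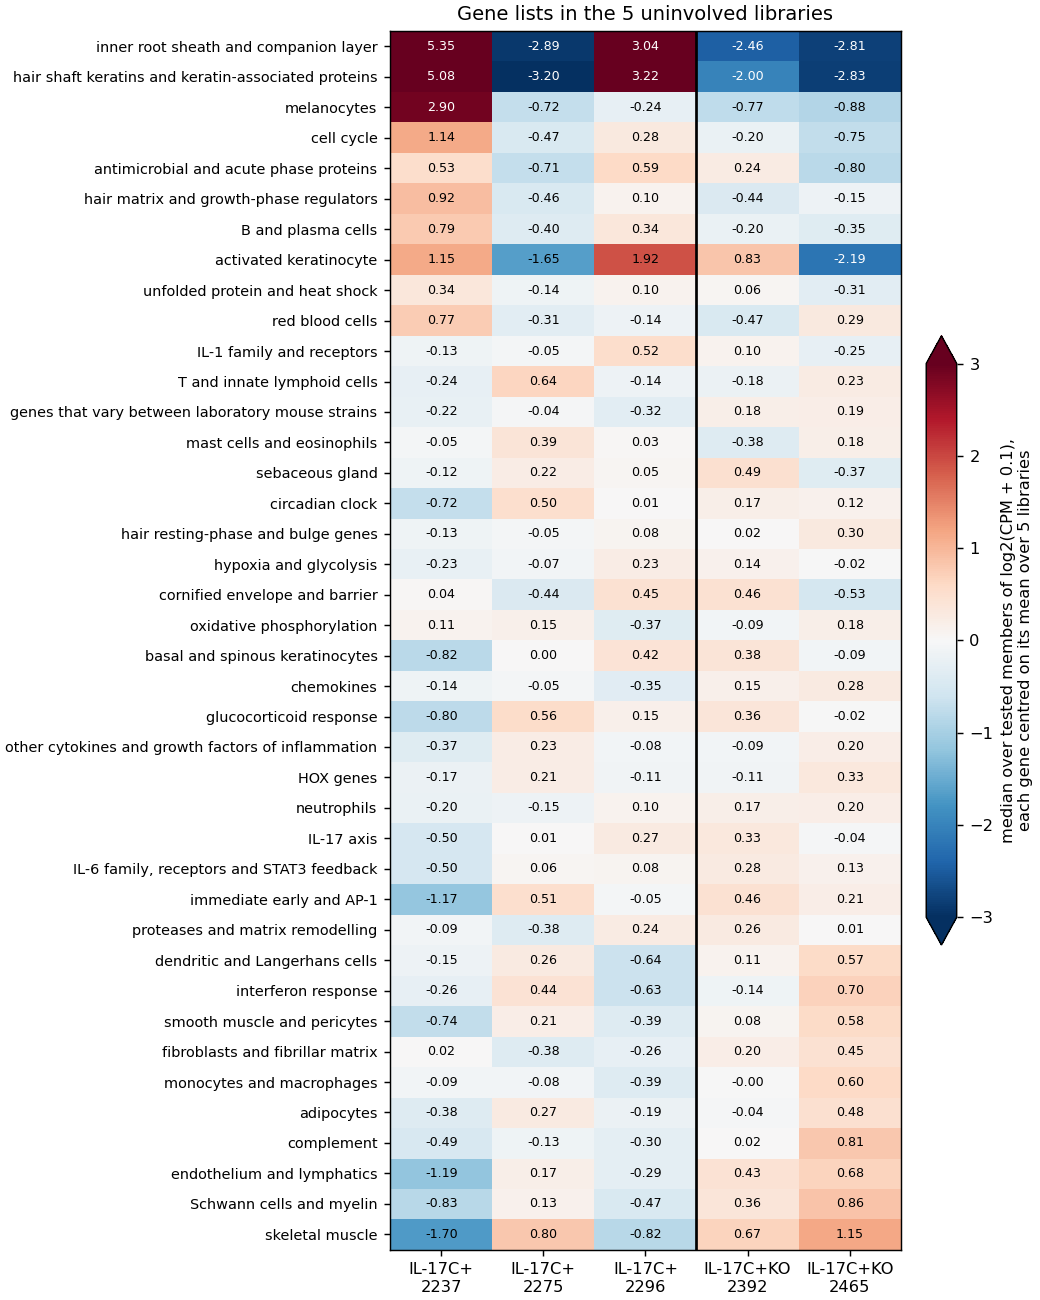
Median over the tested members of each list of log2(CPM + 0.1), after each gene was centred on its mean over the 5 uninvolved libraries; columns are libraries and the colour scale ends at 3 units. The top rows show high hair genes in libraries 2237 and 2296, and the activated keratinocyte row is high in 2237, 2296 and 2392 and low in 2275 and 2465.

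Chemokines showed single genes on either side. Of 29 tested, 2 were higher and 1 lower at an unadjusted p under 0.05. The median was 0.14, but -0.02 without library 2392 and -0.08 without library 2465. Ccl11, an eosinophil attractant, stood at 14.6, 17.9 and 9.04 CPM against 24.8 and 37.1 CPM (log2 difference 1.16 ± 0.38, SE). Ccl4, which attracts macrophages and T cells, stood at 0.523, 0.42 and 0.89 CPM against 0.0872 and 0.0737 CPM (-2.85 ± 0.72), and both KO values are under the level of 3 counts. Both genes had groups that did not overlap, and Cxcl1, a neutrophil attractant, overlapped (0.16 ± 0.80). In other cytokines 0 of 16 were higher and 0 lower. In the IL-1 family 1 of 15 was lower and 0 higher, the protease gene Casp1, at 158, 95.7 and 183 CPM against 85.5 and 40.0 CPM.

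Among leukocyte lists, monocyte and macrophage genes leaned to the higher side. Of 24 tested, 21 had positive values, 2 were higher and 0 lower at an unadjusted p under 0.05, and 10 did not overlap, with a median of 0.54. Csf1r, the receptor of macrophage growth factor, stood at 29.1, 68.8 and 44.2 CPM against 87.0 and 136 CPM (log2 difference 1.24 ± 0.42, SE). Cd14, a co-receptor for lipopolysaccharide, stood at 7.60, 10.2 and 10.8 CPM against 17.1 and 19.8 CPM (0.95 ± 0.31). Both KO libraries were above the IL-17C+ libraries in these genes, but without library 2465 the list median was 0.14. Of 16 neutrophil genes, 2 were higher and 1 lower, with a median of 0.22. The median was 0.40 for dendritic cells, -0.07 for T and innate lymphoid cells and -0.46 for B and plasma cells. None of the 21, 26 and 8 genes of these 3 lists was past an unadjusted p of 0.05.

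Complement genes had 4 of 17 higher and 0 lower at an unadjusted p under 0.05, 8 without overlap, and a median of 0.72. C5ar1, the receptor of the C5a fragment, stood at 4.22, 7.41 and 7.49 CPM against 12.2 and 16.9 CPM (log2 difference 1.19 ± 0.38, SE). The regulator Serping1 had 0.89 ± 0.34 and the protease C1ra 0.82 ± 0.29. Library 2465 was the highest for these genes, and without it the list median was 0.22. Of 28 interferon response genes, 23 had positive values and 0 were higher or lower at that threshold, with a median of 0.44. Without library 2465 that median was -0.12.

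Fat, gland and stress lists had few members past an unadjusted p of 0.05. Among 19 adipocyte genes 1 was lower (Thrsp) and 0 higher. The median was 0.54, but 0.02 without library 2465 and -0.02 against library 2275 alone. Leptin (Lep) stood at 28.6, 36.5 and 14.0 CPM against 33.4 and 91.4 CPM. None of 18 sebaceous genes (median 0.00), 12 glucocorticoid response genes (0.18), 25 immediate early genes (0.27) or 22 oxidative phosphorylation genes (0.09) was past it. In the unfolded protein and heat shock list 1 of 16 was lower (Trib3), in hypoxia and glycolysis 1 of 17 (Ankrd37), and in red blood cells 1 of 4 (Slc4a1), with 0 higher in each. Of 19 circadian clock genes 2 were higher, Arntl at 18.3, 27.4 and 34.2 CPM against 47.8 and 53.5 CPM, and Npas2 at 0.644, 2.64 and 2.11 CPM against 3.97 and 7.62 CPM. Both clock activators were highest in the KO libraries, and the hour of sampling is not given in the labels. Over the clock list 11 values were positive and 8 negative. Its median was 0.03, and -0.13 without library 2465.

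HOX genes, which keep a record of body position, had 1 of 29 higher and 3 lower at an unadjusted p under 0.05. Over the list 16 values were positive and 13 negative, and 2 genes did not overlap on the higher side and 7 on the lower. The median was 0.19, and -0.12 without library 2237 or without library 2465. Values of the 3 lower genes follow. Hoxa9 stood at 9.73, 8.56 and 17.8 CPM against 5.06 and 5.30 CPM, and Hoxb9 at 21.2, 9.09 and 17.7 CPM against 6.93 and 7.99 CPM. Hoxc13 was given above with hair. The groups of these 3 did not overlap. The place on the back from which each biopsy came is not given, and its part in these values was not tested.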

How the data were processed

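RNA of 5 uninvolved biopsies was compared, 3 labelled IL-17C+ and 2 labelled IL-17C+KO. The submitters' processing notes name mm10, cutadapt 1.6, TopHat2 2.0.12, HTSeq and Cufflinks 2.2.1, without order; the sources used here do not give settings, annotation or strand. The deposited count values are whole numbers per gene, with different totals per library, and were taken as raw counts. The deposited FPKM values, normalised by the authors, served for alternative tests only. Counts were tested in R 4.3.3 with edgeR 4.0.16 (filterByExpr, TMM, robust quasi-likelihood test, Benjamini-Hochberg adjustment, threshold 0.05). CPM are TMM-scaled. Standard errors come from the fit and, for genes of few counts, depend on the prior count. Counting intervals and the 3-count limit reflect counting error alone. DESeq2 1.42.0 and limma 3.58.1 gave alternatives. The edgeR test was run on simulated counts, where the only requirement was that the median fitted difference lie near the simulated one. The simulation therefore does not bear on the number of genes called.

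The compared groups, the 41 gene lists and the tests were chosen with earlier results of these data known. Named genes were Il6 and Il17c, then, since none passed, the 10 per direction of smallest p among genes averaging 2 CPM or more, with an established symbol and non-overlapping groups. Up to 4 members per list of smallest p and the 2 of smallest p near Il6 were added by rule; some genes that the rule selects are not reported here. Abundant or defining members of a list, Preb and Mug2 were chosen after their values were seen. Coordinates are from GENCODE M21 (GRCm38, the assembly of mm10), in which 23281 of 24358 symbols name 1 gene. Upstream sequences are from RefSeq, and both genes matched by symbol.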

Additional observations from a re-analysis of the deposited data

How the results depend on the processing

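The count of genes past the FDR threshold was 0 in all but 2 of 18 settings: DESeq2 called 10 (6 higher, 4 lower), and leaving out single libraries gave 0 to 241 calls (0 to 83 higher, 0 to 158 lower), with all calls in the fit without IL-17C+ library 2275. In limma-voom with all 10 libraries and the mouse as a replicate block, 0 genes were called and 830 had an unadjusted p under 0.05; the correlation within a mouse was -0.119. The named genes kept their direction in every setting (390 values on the same side of the threshold, and 18 newly past it, with DESeq2 or without library 2275). Most were named because their groups did not overlap in these same libraries. Leaving out a library could therefore hardly turn their sign, and the kept direction is not separate evidence. List medians were under no such rule: of 41, 21 kept their sign with each library left out, and 20 turned without at least 1 library. Those that turned were the bulge, IL-17 axis, chemokine, IL-1 family, other cytokine, activated keratinocyte, barrier, basal and spinous, sebaceous, protease, T cell, mast cell, interferon, clock, glucocorticoid, hypoxia, oxidative phosphorylation, HOX, red blood cell and strain lists. With single libraries left out, medians ranged from -6.98 to -4.70 for hair shaft, from -1.26 to -0.46 for cell cycle, from 0.70 to 2.16 for skeletal muscle and from 0.0029 to 0.44 for the IL-6 pathway. They ranged from -3.02 to -0.39 for melanocytes, from -0.0752 to 0.22 for chemokines, from 0.14 to 0.79 for monocytes and macrophages and from 0.22 to 1.06 for complement. With library 2275 as the lone IL-17C+ library, an alternative added after the data were seen, medians were 1.08 for hair shaft, 0.64 for inner root sheath, -0.17 for melanocytes, -0.0089 for cell cycle and 0.48 for Schwann cells; that fit takes the lone library to vary like the KO libraries. The cause of these shifts was not tested. In the lone-library fit a gene could pass the filter through a KO library alone. Depth limits genes with 3 counts or fewer, such as Abhd1 in IL-17C+ and Ccl4 in KO libraries.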
